A study of Rattus norvegicus with 4 samples.

Results

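The nuclear genes of oxidative phosphorylation were taken as all genes whose symbol starts with Nduf, Uqcr, Cox4, Cox5, Cox6, Cox7, Cox8 or Atp5 and which had 50 or more unique molecular identifiers (UMIs, counts of captured RNA molecules) over the cells kept. Of 32883 genes in the table, 95 carried such a symbol and 87 passed this minimum: 36 subunits of complex I, 8 assembly factors of complex I (Ndufaf genes), 9 genes of complex III, 17 of complex IV and 17 of ATP synthase. Ndufa4 and its paralog Ndufa4l2 keep names from complex I and were counted with complex IV, where the Ndufa4 protein resides. The 8 genes below the minimum were Atp5pb with 9 UMIs, Ndufa1 with 3, a second Ndufa10l1 identifier with 6, Cox7a1 with 16, Cox7b2 with 5, Cox8b with 19, Cox8c with 3 and the pseudogene Cox6c-ps1 with 0. Atp5pb and Ndufa1 are core subunits, and whether the authors' gene models cover the 3′ ends of their transcripts was not checked, so their low counts are not read as low expression.

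The RNA came from pituitary cells of female Sprague Dawley rats, 75 days old, cycling at random, with no treatment or genotype named in the labels. For the dissected preparation, 30 pituitaries were pooled after splitting off the posterior lobe, and each lobe gave 1 library. For the whole preparation, 30 further pituitaries made 1 cell suspension, run on 2 lanes. All cells were released with trypsin and EDTA, and animals were pooled, so that spread between animals was not measured. The 2 preparations, dissected and whole, are the replicates (n = 2). The shift between preparations that all classes share was fitted by its own term. P-values measure only the spread that remains between these pooled preparations, estimated jointly over 11 cell classes that share libraries.

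In oxidative phosphorylation, complex I takes electrons from NADH and complex II takes them from succinate, complex III passes them on to cytochrome c, and complex IV hands them to oxygen. Proton pumping by complexes I, III and IV builds the gradient that ATP synthase uses to make ATP. Complexes I, III and IV and ATP synthase are mosaics of nuclear subunits and subunits encoded in mitochondrial DNA (genes starting Mt-), whereas complex II is nuclear only, and several complex IV subunits exist as isoforms that differ between tissues.

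Of 32455 barcodes, 20381 passed minimums of 1000 UMIs and 500 genes and a maximum of 20% Mt- UMIs, and 588 of these were left out as likely doublets. The median depth per cell was 9556 to 10604 UMIs in the 4 libraries, and 32 barcodes occurred in more than 1 library. Clusters were named from marker genes with the ending "-like", and 11 classes, each with 50 or more cells in the dissected and in the whole preparation, gave 22 sums. Classes were matched to the lobe they were dissected from: folliculostellate-like (glia-like cells of the anterior lobe) and hormone-like cells came from the anterior library, and pituicyte-like (glia of the posterior lobe) and melanotroph-like cells from the posterior library. The fibroblast-like cluster also held cells with pericyte markers, and 43 of 598 endothelial-like cells had more than 1% hemoglobin UMIs. A member's level is its UMIs per 1000000 UMIs outside Mt- genes and hormone genes, called nuclear non-hormone UMIs here, because hormone RNA made up as much as 50.7% of all UMIs in a class. These are 3' end counts, 1 per molecule, and were not divided by gene length.

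Promoters are shown first, since nuclear genes of the respiratory chain are known for sites of the factors NRF1, GABPA (an ETS factor), ERRA and YY1. RefSeq promoters of build GRCr8 were matched for 73 of 84 member symbols, and the 250 bases upstream of each start were searched on both strands for the NRF1 motif (10 letters, the middle run of capitals printed below for Atp5me), CCGGAAG (ETS, GABPA), TGACCTTG (ERRA) and AAGATGGC (YY1). CCGGAAG and AAGATGGC can overlap by the letters AAG. The CCGGAAG letters occurred in 18 member promoters (24.7%), against 7.74% of 27457 promoters of the same length. The NRF1 letters occurred in 6 (8.22%), those of Atp5me, Atp5mc2, Atp5po, Ndufa11, Ndufaf4 and Ndufaf5, against 0.849% of all. The shares lay closer together for TGACCTTG (2.74% against 1.3%) and AAGATGGC (2.74% against 1.69%). None of the 4 motifs was found in 48 of the 73 member promoters, 23 held 1 kind, and 1 each held 2 and 3 kinds. A match describes letters in this window and not a bound factor. 6 promoters are printed, chosen after the values had been seen: Atp5me and Atp5pf for holding more than 1 kind of motif, Ndufa11 for 2 overlapping NRF1 matches, Ndufa6 as the member that stood out among hormone cells, and Cox6b2 and Ndufa4l2 as isoform genes with their own pattern across classes. Capitals mark the motif letters as they read on the gene's strand, so that a match on the other strand appears as its reverse complement, and the last 2 hold none.
Atp5me: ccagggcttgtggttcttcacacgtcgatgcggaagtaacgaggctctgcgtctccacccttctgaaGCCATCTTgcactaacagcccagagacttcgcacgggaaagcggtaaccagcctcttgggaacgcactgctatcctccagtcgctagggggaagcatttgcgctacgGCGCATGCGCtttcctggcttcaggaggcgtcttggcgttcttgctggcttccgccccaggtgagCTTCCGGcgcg
Atp5pf: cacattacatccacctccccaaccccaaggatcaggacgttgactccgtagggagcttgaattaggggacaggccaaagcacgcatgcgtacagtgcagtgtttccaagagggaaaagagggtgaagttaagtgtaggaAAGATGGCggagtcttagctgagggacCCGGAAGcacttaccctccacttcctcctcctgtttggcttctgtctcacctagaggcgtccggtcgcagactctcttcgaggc
Ndufa11: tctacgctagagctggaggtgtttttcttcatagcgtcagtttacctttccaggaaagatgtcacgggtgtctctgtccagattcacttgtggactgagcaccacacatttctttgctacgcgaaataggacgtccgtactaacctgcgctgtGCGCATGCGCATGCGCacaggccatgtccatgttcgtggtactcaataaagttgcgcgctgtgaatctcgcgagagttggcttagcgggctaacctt
Ndufa6: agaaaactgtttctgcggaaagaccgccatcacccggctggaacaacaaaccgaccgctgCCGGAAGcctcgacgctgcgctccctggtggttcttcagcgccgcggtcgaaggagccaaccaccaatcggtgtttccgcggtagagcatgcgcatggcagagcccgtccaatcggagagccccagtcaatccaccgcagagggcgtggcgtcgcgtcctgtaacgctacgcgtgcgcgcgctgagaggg
Cox6b2: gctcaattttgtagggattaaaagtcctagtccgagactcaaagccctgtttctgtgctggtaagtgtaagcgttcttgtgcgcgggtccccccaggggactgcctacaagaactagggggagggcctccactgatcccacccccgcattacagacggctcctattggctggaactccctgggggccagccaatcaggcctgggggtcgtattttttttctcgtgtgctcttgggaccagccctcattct
Ndufa4l2: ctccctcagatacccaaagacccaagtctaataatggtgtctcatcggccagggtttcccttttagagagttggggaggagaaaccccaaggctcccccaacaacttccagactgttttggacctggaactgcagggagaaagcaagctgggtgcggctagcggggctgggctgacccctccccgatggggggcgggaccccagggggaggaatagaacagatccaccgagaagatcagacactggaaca
These windows lie at chr14:1464610-1464859, plus strand (Atp5me, ATP synthase subunit e), chr11:37375102-37375351, minus strand (Atp5pf, coupling factor 6 of the stalk), chr9:1637364-1637613, plus strand (Ndufa11, a membrane subunit of complex I) and chr7:115750318-115750567, minus strand (Ndufa6, a complex I subunit). Those of the isoform genes lie at chr1:78122621-78122870, plus strand (Cox6b2, the complex IV subunit known from testis) and chr7:65241919-65242168, plus strand (Ndufa4l2). All are upstream of the annotated transcript start.

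The summed members were highest in gonadotroph-like cells and lowest in macrophage-like cells. They made up 42138 ± 862 per 1000000 nuclear non-hormone UMIs in gonadotroph-like cells (mean ± SD, n = 2 preparations), 39153 ± 4091 in melanotroph-like, 38434 ± 1055 in corticotroph-like and 36902 ± 1133 in thyrotroph-like cells. Pituicyte-like cells stood with these endocrine classes at 36613 ± 1235, followed by somatotroph-like cells at 34096 ± 924 and lactotroph-like cells at 31629 ± 599. The other 4 classes lay well below: fibroblast-like cells at 21369 ± 977, folliculostellate-like at 20562 ± 512, endothelial-like at 19538 ± 1135 and macrophage-like at 19250 ± 239. No sum of these 4 classes overlapped with any sum of the other 7, the nearest being 22060 in fibroblast-like and 31205 in lactotroph-like cells of the whole preparation. Within each set, neighbours such as melanotroph- and corticotroph-like, thyrotroph- and pituicyte-like, or endothelial- and macrophage-like cells were closer than their spread.

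The step between those sets was seen in each group of members except the assembly factors. ATP synthase members summed to 5492 to 6195 in the 4 low classes and to 9713 to 12833 in the other 7, complex I subunits to 5044 to 6456 and 9350 to 12783, and complex III to 1960 to 2197 and 3308 to 4646. Complex IV showed the smallest gap, 5786 to 7482 against 8473 to 12487, with the top of the lower range in fibroblast-like cells. Assembly factors of complex I overlapped: folliculostellate-like cells (267 and 272 in the dissected and whole preparation) lay between the lactotroph-like sums (272 and 261).

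**Figure D1:**
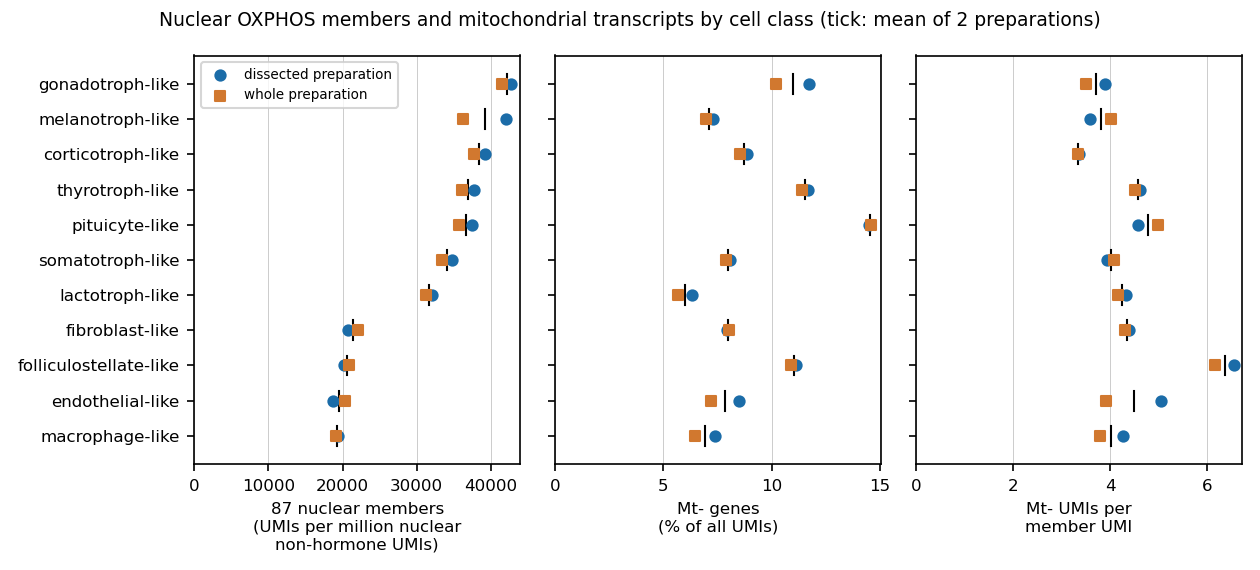
Summed member level (UMIs per 1000000 nuclear non-hormone UMIs), Mt- UMIs as percent of all UMIs, and Mt- UMIs per member UMI for each of 11 classes; points are the dissected and whole preparations and ticks their mean. Gonadotroph-like cells are highest in member level at 42138, 4 non-endocrine classes lie at or below 22060, and pituicyte-like cells have the highest Mt- share at 14.6%.

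The order of the classes depended on the denominator. With library sizes scaled by TMM (trimmed mean of M-values), the means ran from 27480 in gonadotroph-like and 25354 in pituicyte-like cells to 15278 in folliculostellate-like and 14929 in endothelial-like cells. On that scale lactotroph-like cells moved up to 24361, and macrophage-like cells (19186 and 19804) came next to the whole-preparation melanotroph-like sum (19808). Folliculostellate-, endothelial- and fibroblast-like cells stayed below every endocrine and pituicyte-like sum on the TMM scale, but not as a plain share of all UMIs. There the pituicyte-like class was highest (30511 per 1000000) and the lactotroph-like class lowest (14100), with hormone RNA at 48.2% and 50.7% of lactotroph-like UMIs. Within the posterior library alone, 323 folliculostellate-like cells had a level of 20018 and 1103 pituicyte-like cells one of 37486, so the difference between these glial classes was as large within 1 library. The pituicyte-like class joined a cluster with 36184 in the dissected preparation and a shallow cluster (median 1899 UMIs per cell) with 47342.

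The share of Mt- UMIs among all UMIs, hormone UMIs included, followed a different order. It was highest in pituicyte-like cells (14.5% and 14.6% in the dissected and whole preparation) and lowest in lactotroph-like cells (6.30% and 5.67%). Gonadotroph-like (11.7% and 10.2%), thyrotroph-like (11.7% and 11.4%) and folliculostellate-like cells (11.1% and 10.9%) came next. Corticotroph-, somatotroph-, fibroblast-, endothelial-, melanotroph- and macrophage-like cells lay between 6.47% and 8.88%. All these shares are capped by the limit of 20% Mt- UMIs per cell. Of all barcodes, 45.4% were over it in the posterior library and 27.2% to 27.9% in the others. With a 50% limit the mean share was 18.0% in pituicyte-like and 6.40% in lactotroph-like cells. Folliculostellate-like cells thus combined a low member level with a high Mt- share of all UMIs, but these measures have different denominators. With hormone UMIs left out, their Mt- share was 11.7% and 11.4%. It was then below pituicyte-like cells and every endocrine class except corticotroph-like cells (11.6% and 11.2%). Fibroblast-, endothelial- and macrophage-like cells were lower, at 6.74% to 8.65%. Folliculostellate-like cells carried 6.55 and 6.16 Mt- UMIs for each member UMI. The other 10 classes had 3.33 to 5.04, highest in endothelial-like cells of the dissected preparation (5.04, against 3.92 in the whole one) and in pituicyte-like cells (4.58 and 4.98).

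Across the 11 classes, member level and Mt- share of all UMIs were weakly related, with Pearson's r of 0.293 (Spearman's rho 0.300) in the dissected and 0.335 (0.382) in the whole preparation. With hormone UMIs left out of the denominator of the Mt- share, r was 0.839 (rho 0.691) and 0.801 (0.673). These are descriptions over 11 points that share libraries, depth and, in the second case, the hormone UMIs removed from both denominators.

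Within a class, cells were binned by Mt- share in steps of 5 points. In most endocrine classes the highest filled bin did not have more member RNA than the lowest. Among lactotroph-like cells the level was 31442 in cells with at most 5% Mt- UMIs and 23588 in cells with 15% to 20%. This is a ratio of 0.750 (0.733 in the whole preparation). The course was not steady, and their level was highest at 5% to 10% (33302.5 and 32532). Somatotroph-like (35033 and 33804) and gonadotroph-like levels (43352.5 and 42680) were highest at 10% to 15%. From the lowest to the highest bin, the hormone share of the dissected lactotroph-like cells went from 51.0% to 40.4%. Their median depth went from 18807 to 6154 UMIs. Melanotroph-like cells of the posterior library had a ratio of 0.706, with median depths that went from 27782 to 7890 UMIs. Among those of the whole preparation it was 0.914, and the highest filled bin ended at 10%. The ratio of the highest to the lowest filled bin was 0.789 and 0.932 in corticotroph-like, 0.896 and 0.935 in somatotroph-like, 1.04 and 1.0 in gonadotroph-like, and 1.04 and 1.09 in folliculostellate-like cells. In pituicyte-like cells it was 0.842 and 0.980, and in macrophage-like cells 0.934 and 1.12. Thyrotroph-like cells had 1.10 in the whole and fibroblast-like cells 1.04 in the dissected preparation, with a single filled bin in the other. Endothelial-like cells were the class in which it was highest, 1.22 and 1.3. Filled bins differed between preparations in corticotroph-, folliculostellate- and pituicyte-like cells, so those pairs do not compare the preparations. Corticotroph-like levels at 5% to 10% and 15% to 20% were 39944 and 31516 (dissected) and 38176 and 30379 (whole). The whole corticotroph-like ratio started at or below 5%, at 32612 in 22 cells. Dissected pituicyte-like levels were 37598.5 at 10% to 15% and 37473 at 15% to 20%, the bins of the whole ratio. The dissected pituicyte-like ratio started at or below 5%, at 44531 in 51 cells with a median of 1393 UMIs. At 5% to 10% the dissected level was 35899, below that of the highest bin. The part of depth and hormone content in these ratios was not tested.

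**Figure D2:**
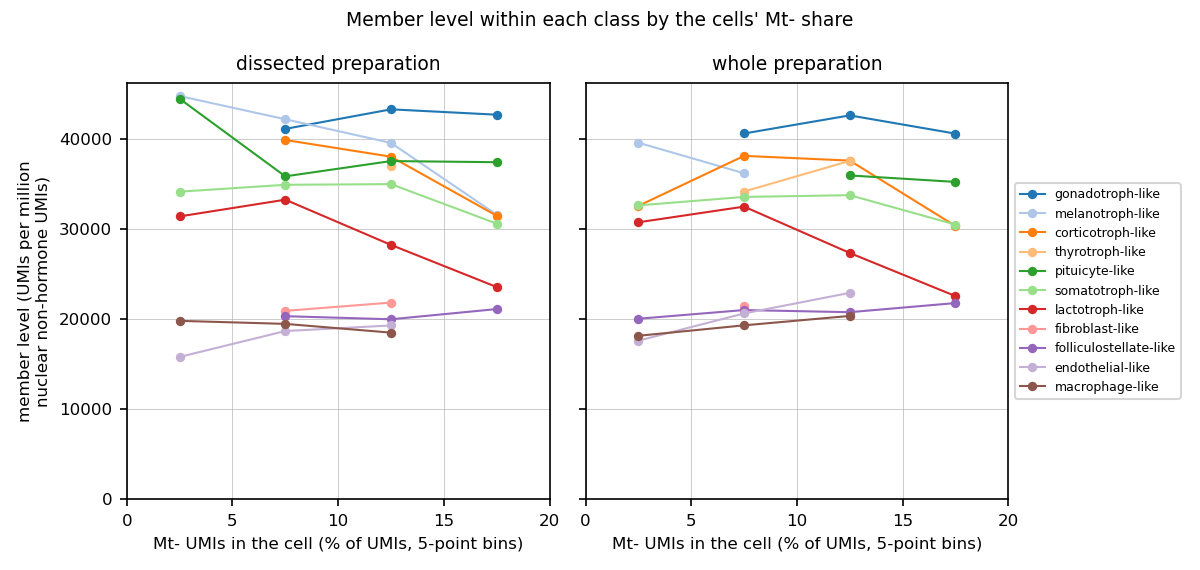
Member level (UMIs per 1000000 nuclear non-hormone UMIs) in 5-point bins of the cells' Mt- share (percent of UMIs), 1 line per class, for the dissected and the whole preparation; bins with fewer than 20 cells are left out. The lactotroph-like line ends at 23588 and 22581 in the last bin, and the folliculostellate-like line stays between 20061 and 21805 at its ends.

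Barcodes above the limit of 20% Mt- UMIs had lower member levels in all 4 libraries, with the smallest difference up to 50% in the posterior one. Between 20% and 50% Mt- UMIs the level was 19848 in the anterior library and 20413 and 20193 in the whole lanes, against 30710, 29772 and 30469 in the barcodes kept. In the posterior library it was 30297 against 32109. Above 50% it lay between 7597 and 15504 in the 4 libraries. These barcodes had median depths of 2502 to 3083 UMIs. Those up to 50% entered the comparisons only where that limit was tried as an alternative. The levels pool all cell classes. Between 20% and 50% Mt- UMIs, hormone RNA made up 16.6% of UMIs in the anterior and 4.54% in the posterior library. In the barcodes kept it made up 35.2% and 26.1%. The part of the class mix in these levels was not tested.

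Most members followed the same pattern over classes. Of the 87 members, 62 correlated above 0.8 (Pearson's r over the 22 sums, a description of sums that share libraries and classes) with the sum of the other members, led by Uqcr11, the smallest complex III subunit, at 0.99. The members were highest in gonadotroph-like cells in 28 cases, melanotroph-like in 20, pituicyte-like in 16, corticotroph-like in 12, thyrotroph-like in 5, fibroblast-like in 3, somatotroph-like in 2 and lactotroph-like in 1. The lowest level was in macrophage-like cells for 43 members, endothelial-like for 19, fibroblast-like for 14 and folliculostellate-like for 6. Below 0.5 were 8 members: Cox6b2 (-0.83), Cox4i2 (-0.70), Ndufa4l2 (-0.34), Cox7a2l (0.09), Ndufaf4 (0.35), Cox6a2 (0.35), Atp5mc2 (0.38) and Ndufaf8 (0.44). Of these, 5 belong to complex IV, and 4 of those are isoforms known to be tissue-restricted. Over all classes, 87 of 87 members passed the class term in edgeR's quasi-likelihood test at an adjusted p under 0.05, where 96.2% of all 14588 genes tested did, so the count sets the members apart from nothing.

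**Figure D3:**
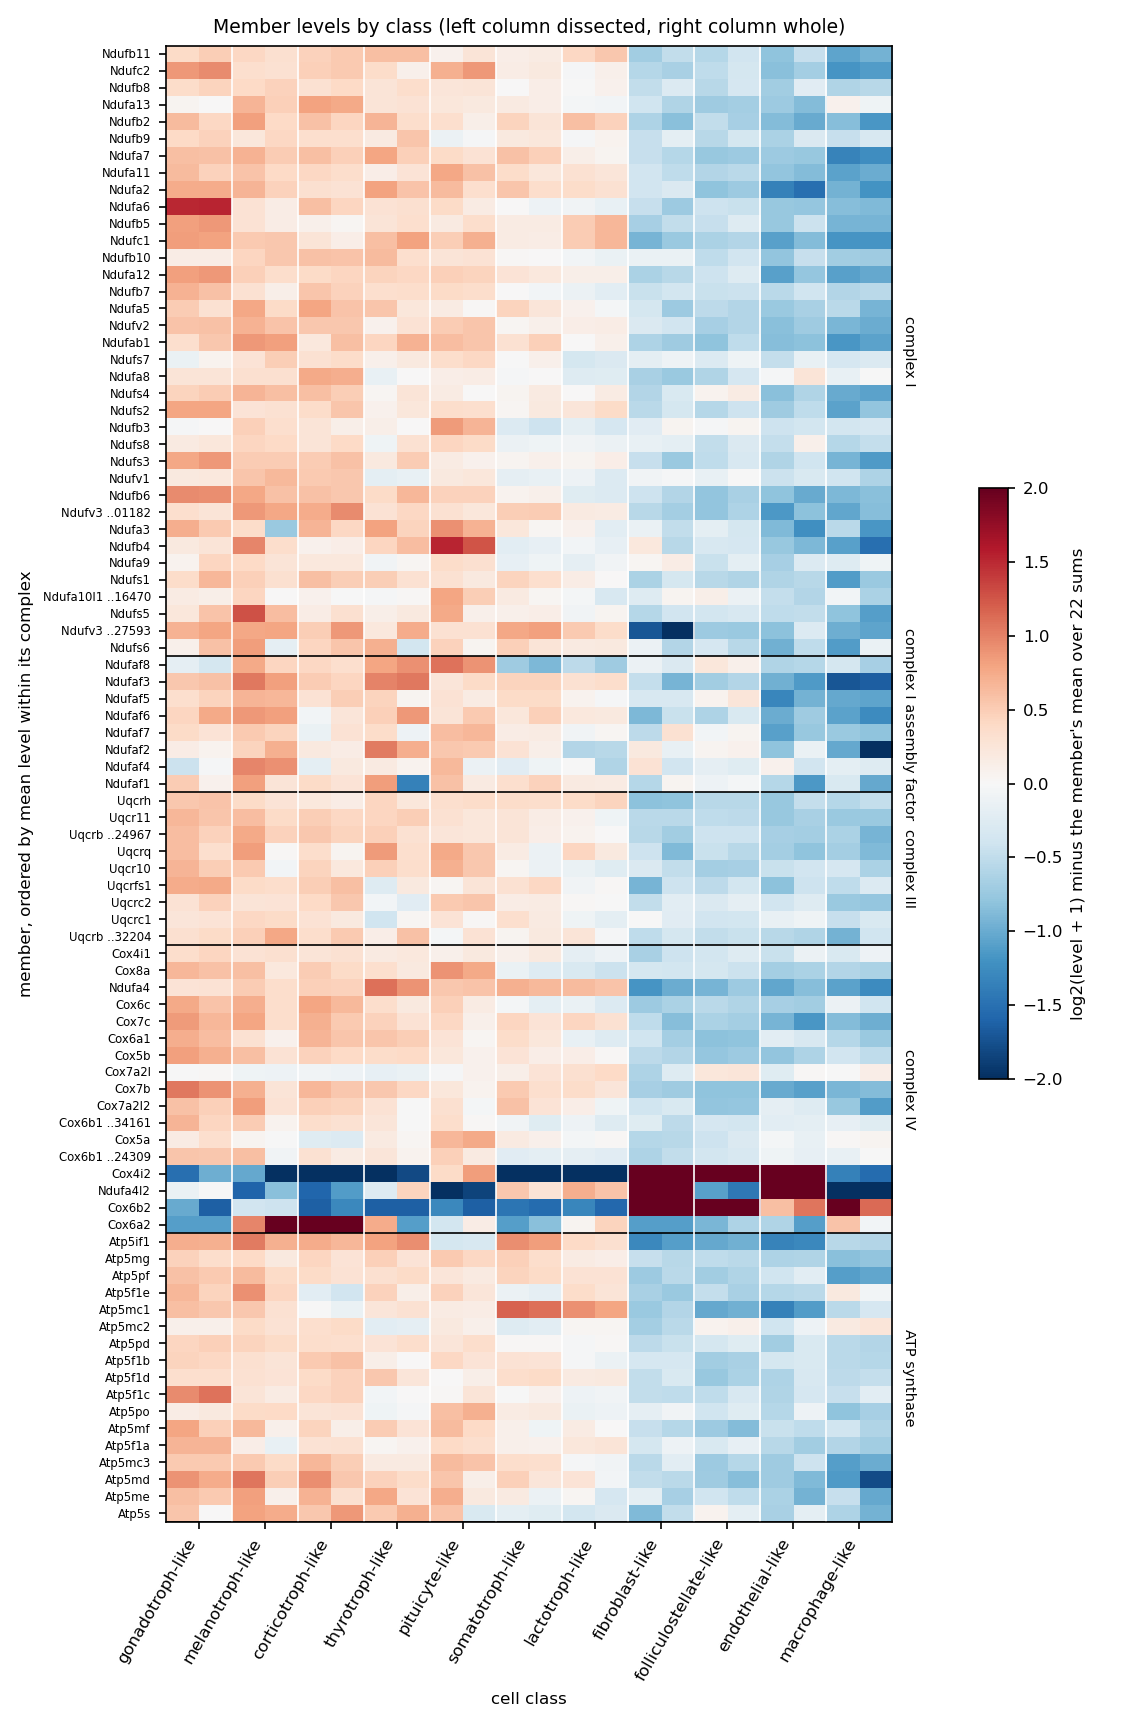
Member levels, as log2(level + 1) minus the member's mean over the 22 sums, for 87 members (one line each, grouped by complex) and 11 classes (left column dissected, right column whole). Most members are above their mean in endocrine and pituicyte-like columns and below it in the others. Cox4i2 and Cox6b2 are highest in fibroblast-like columns and low in endocrine ones. Cox4i2 is also low in macrophage-like columns, and Cox6b2 in pituicyte-like ones.

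Members with high UMI levels in each complex followed that pattern to different degrees. Ndufb11, a membrane-arm subunit of complex I, had levels from 621 to 859 in the 12 endocrine sums, 603 and 680.1 in pituicyte-like cells and 383 and 433 in folliculostellate-like cells. Uqcrh, the hinge protein of complex III that contacts cytochrome c1, had from 806 to 1078, 917 and 935 and 493 and 491 in the same classes. Cox8a, the ubiquitous small subunit of complex IV, had from 842 to 1788, 2122 and 1925 and 893 and 843, and Atp5mg, subunit g of ATP synthase, from 888 to 1122, 1159.9 and 1071 and 567 and 557. Ndufb11, Uqcrh and Atp5mg were lower in folliculostellate-like cells than in every endocrine and pituicyte-like sum, and Cox8a overlapped with the lowest endocrine sums. Over the 11 class means, the log2 ratio of the highest to the lowest was 1.60 for Ndufb11, 1.37 for Uqcrh, 1.5 for Cox8a and 1.28 for Atp5mg. Among other members with high UMI levels it was wider for Atp5if1 (2.19) and Ndufa4 (2.17) and narrower for Cox4i1 (0.92).

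Against the 5 anterior hormone classes, folliculostellate-like cells had lower levels of members of every complex. A member was called higher or lower at an adjusted p under 0.05 (edgeR quasi-likelihood test, Benjamini-Hochberg over 14588 genes) where its log2 fold change was also 0.5 or more in size. Of 87 members, 49 were lower and 2 higher, where 22.2% of all genes were lower and 30.9% higher. At the adjusted p alone the counts were 62 (29.1% of all genes) and 6 (36.4%), and with a size limit of 1 they were 10 (11.8%) and 2 (22.9%). The members' median log2 fold change was -0.59 and that of all genes 0.08. Lower were 22 of 36 complex I subunits (median -0.60), 7 of 9 complex III (-0.59), 8 of 17 complex IV (-0.63) and 10 of 17 ATP synthase members (-0.66), but 2 of 8 assembly factors (0.06). The higher members were the isoform genes Cox4i2 and Cox6b2, described with their values further on.

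Among the ATP synthase members the regulator led. Atp5if1, the inhibitor that blocks ATP hydrolysis by the synthase, had levels of 382 and 397 in folliculostellate-like cells and, over the 10 hormone-like sums, lowest 963, median 1289, highest 1475. It was lower in both preparations with no overlap (log2 fold change -1.49, SE 0.12, adjusted p = 1.69e-10, edgeR). Atp5mc1, one of the genes for the c subunit of the rotor ring, had 339 and 353 against lowest 627, median 1025, highest 1570.4 (log2 fold change -1.34, SE 0.13, adjusted p = 1.64e-09, edgeR). The groups did not overlap for Atp5mc1 either. Atp5mc2, which encodes the same mature c subunit, had 733 and 750.1 against lowest 585, median 717, highest 908 and was not called (0.28). The difference between the c subunit genes was not tested.

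In complex I, Ndufa2, a small matrix-arm subunit, had 175 and 185 against lowest 373, median 423, highest 532 (log2 fold change -1.06, SE 0.12, adjusted p = 6.52e-08, edgeR). The identifier ENSRNOG00000027593 of Ndufv3, a flavoprotein-module subunit with 2 identifiers in the table, had 6.21 and 6.13 against lowest 12.9, median 18.8, highest 20.8 (log2 fold change -1.34, SE 0.16, adjusted p = 6.43e-08, edgeR), and how reads are divided between the copies is uncertain. Both were below every hormone-like sum. Ndufv1 (log2 fold change 0.08) and Ndufs7 (-0.01), core subunits of electron transfer, and Ndufs4 (0.04), an accessory subunit of the same arm, were not called. Ndufaf3, an early assembly factor, had 40.0 and 42.9 against lowest 80.8, median 91.2, highest 137 (log2 fold change -1.02, SE 0.09, adjusted p = 1.04e-09, edgeR). Ndufaf8, another assembly factor, went the other way with 107 and 97.1 against lowest 48.1, median 75.5, highest 171, a log2 fold change of 0.46 that missed the size limit.

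Complexes III and IV held members that were called lower and members that were not called. Uqcrh had a log2 fold change of -0.72, Uqcrq, a small membrane subunit, -0.62, and Uqcrfs1, the Rieske iron-sulfur protein, -0.57, all called lower, whereas the core proteins Uqcrc1 (-0.28) and Uqcrc2 (-0.20) were not called. In complex IV, Ndufa4 had 524 and 599 against lowest 1208, median 1506, highest 2139.5 (log2 fold change -1.22, SE 0.12, adjusted p = 2.06e-09, edgeR), and Cox7b had 263 and 263 against lowest 544, median 666, highest 959. Neither overlapped. Cox4i1, the main form of the regulatory subunit 4, had 1053 and 1128 against lowest 1202, median 1559, highest 1825 and was not called (-0.28). Cox7a2l, which joins complexes III and IV into supercomplexes, had 638 and 646 against lowest 486, median 549.9, highest 723 and was not called either (0.37).

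**Figure D4:**
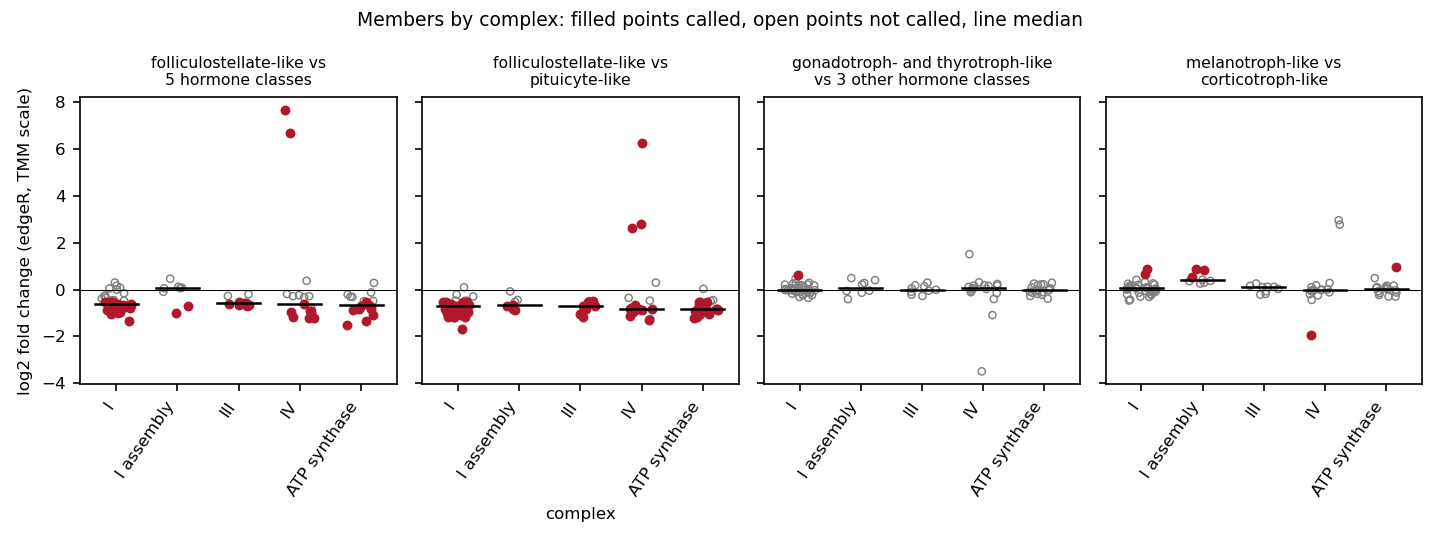
Log2 fold change (edgeR, TMM scale) of each member by complex. Panels compare folliculostellate-like with hormone-like and with pituicyte-like cells, gonadotroph- and thyrotroph-like with other hormone cells, and melanotroph- with corticotroph-like cells. Filled points were called, open points were not, and lines are medians. In folliculostellate- against hormone-like cells the medians of complexes I, III, IV and ATP synthase lie between -0.66 and -0.59 and that of assembly factors at 0.06.

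Mitochondrially encoded genes lay around a median near 0. Of the 13 Mt- genes, 1 was higher (Mt-nd1, log2 fold change 0.53, SE 0.08, adjusted p = 3.07e-06, edgeR) and 1 lower (Mt-nd6, log2 fold change -0.97, SE 0.14, adjusted p = 2.20e-06), with a median of -0.01. Complex II, which has no mitochondrial subunit, gave 1 called gene of 4: Sdha, its flavoprotein, was higher in folliculostellate-like cells at 145 and 147 (log2 fold change 0.96, SE 0.08, adjusted p = 1.44e-10, edgeR). Cyc1, the cytochrome c1 of complex III whose symbol lies outside the rule, was lower (log2 fold change -0.61, SE 0.12, adjusted p = 1.38e-04, edgeR). Immediate early genes, which respond to dissociation as well as to signals, were higher in folliculostellate-like cells for 14 of 14 genes (median log2 fold change 2.53). Their summed level was 48637 and 47388 against 8864 to 18351 in the hormone-like sums. The part of this response, and of hormone RNA in the scaling, in the member differences was not tested.

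Pituicyte-like cells, the glia of the other lobe, were above folliculostellate-like cells in most members. Against pituicyte-like cells, 68 of 87 members were lower and 3 higher in folliculostellate-like cells, where 21.8% of all genes were lower and 23.9% higher. At the adjusted p alone 76 were lower and 3 higher (25.3% and 26.3% of all genes), and with a size limit of 1 the counts were 18 and 3 (12.7% and 17.3%). The median log2 fold change was -0.72 for members and 0.03 for all genes. Lower were 31 of 36 complex I subunits, 5 of 8 assembly factors, 8 of 9 complex III, 10 of 17 complex IV and 14 of 17 ATP synthase members. Higher were the isoform genes Cox6b2, Cox4i2 and Ndufa4l2. This comparison shares the folliculostellate-like sums with the one against hormone cells.

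Outside the isoform genes, the called differences of largest size were in the lower direction. Ndufb4, a membrane-arm subunit of complex I, had 64.2 and 63.0 against 232 and 193 in the dissected and whole preparation (log2 fold change -1.69, SE 0.15, adjusted p = 2.06e-09, edgeR), and against hormone-like cells it was not called (-0.26). Ndufa4 had 524 and 599 against 1451 and 1477 (log2 fold change -1.28, SE 0.14, adjusted p = 4.60e-08, edgeR). Atp5mf, subunit f of ATP synthase, had 250.3 and 226 against 640.3 and 542 (log2 fold change -1.21, SE 0.15, adjusted p = 3.10e-07, edgeR). In these members both folliculostellate-like sums lay under both pituicyte-like sums. Among the called members of complex III was Uqcrq at -1.04, and Cox8a of complex IV had -1.12. Uqcrfs1 was called at -0.51, and without the posterior, anterior or second whole lane library it was not (-0.49, -0.48 and -0.49). It was also not called with the 10% or 50% limit on Mt- UMIs (-0.38 and -0.43), at least 3000 UMIs (-0.47) or doublets kept (-0.46). The same held with no low-count filter (-0.46) and no preparation term (-0.49).

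Other gene groups differed in this comparison as well. Immediate early genes were higher for 14 of 14 (median 4.66), with a summed level of 2287 and 1322 in pituicyte-like cells, and cytosolic ribosomal proteins were higher for 45 of 89 and lower for 0. Of the 13 Mt- genes 2 were lower (median -0.31), and of complex II Sdhb and Sdhd were lower (-0.50 and -0.71). Esrra, the receptor ERRA that drives respiratory genes, was lower against pituicyte-like cells (log2 fold change -2.20, SE 0.16, adjusted p = 3.96e-11, edgeR) and against hormone cells (-0.94). Its partner Ppargc1a was lower against pituicyte-like (-0.93) and higher against hormone cells (3.0), at low levels of 6.76 and 7.53 in folliculostellate-like cells. Tfam, which packages mitochondrial DNA, was called in neither comparison (0.14 and 0.11).

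When the 5 non-endocrine classes were averaged against the 6 endocrine ones, with pituicyte-like cells in the first group, the members' median difference was smaller than in folliculostellate-like cells alone. Called lower were 26 of 87 members and higher 2, where 23.6% of all genes were lower and 28.5% higher, so the lower share of members (29.9%) is near the background. With no size limit 60 were lower and 7 higher (32.4% and 35.8% of all genes), and with a size limit of 1 the counts were 3 and 2 (13.8% and 20.7%). The members' median was -0.41 against 0.07 for all genes. The lowest log2 fold changes were those of Atp5if1 (-1.30), Ndufv3 (-1.29, identifier ENSRNOG00000027593) and Ndufaf3 (-1.09). Cox4i2 and Cox6b2 were the higher ones. With library size counted outside Mt- and hormone genes and no TMM, 60 members were lower, where 35.8% of all genes were, and the median of all genes shifted by -0.34.

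Among hormone cells, gonadotroph- and thyrotroph-like cells were compared with lactotroph-, somatotroph- and corticotroph-like cells because earlier results had shown a higher Mt- share in them. That share was 10.2% to 11.7% in their 4 sums and 5.67% to 8.88% in the other 6, and with hormone UMIs left out 12.7% to 14.8% against 11.2% to 12.2%. Of the members, 1 was higher and 0 were lower, where 7.63% of all genes were higher and 12.1% lower. At the adjusted p alone 7 were higher and 6 lower (9.21% and 18% of all genes), and with a size limit of 1 none was either (5.13% and 4.6%). DESeq2 with the limit of 0.5 gave 4 higher and 0 lower, where 12.6% of all genes were higher and 6.0% lower. The members' median was -0.0038 and that of all genes -0.19. The called member was Ndufa6, a complex I subunit of the LYR family, with 855 and 865 in gonadotroph-like cells, 368 and 376 in thyrotroph-like cells and from 273 to 456 in the other sums (log2 fold change 0.62, SE 0.10, adjusted p = 4.19e-05, edgeR). The high values were those of gonadotroph-like cells, and thyrotroph-like cells lay within the range of the others. Over the same comparison cytosolic ribosomal protein genes were lower for 45 of 89.

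The 2 Pomc classes, melanotroph-like cells of the intermediate lobe and corticotroph-like cells of the anterior lobe, had close member medians. Higher in melanotroph-like cells were 6 members and lower 1, where 12% of all genes were higher and 10.3% lower, with medians of 0.05 for members and 0.02 for all genes. At the adjusted p alone 7 were higher and 4 lower (12.7% and 11.8% of all genes), and with a size limit of 1 the counts were 0 and 1 (8.64% and 6.05%). Atp5f1e, the epsilon subunit of ATP synthase, had 1479 and 1050.5 in melanotroph-like and 673 and 599 in corticotroph-like cells (log2 fold change 0.97, SE 0.15, adjusted p = 3.15e-05, edgeR). Ndufs5, a complex I subunit of the intermembrane face, had 81.1 and 51.1 against 36.8 and 41.4 (log2 fold change 0.89, SE 0.21, adjusted p = 0.00214). Neither overlapped between the classes. The others were Ndufb4 (0.66) and the assembly factors Ndufaf6 (0.82), Ndufaf4 (0.86) and Ndufaf3 (0.53), of which Ndufaf6 was chosen for mention after its values were seen. Cox6a2, the muscle form of subunit 6a, was lower (log2 fold change -1.95, SE 0.50, adjusted p = 0.00567, edgeR) at levels of 3.23 and 7.87 against 22.2 and 12.4. Without the posterior library, which leaves 117 melanotroph-like cells of the whole preparation, 1 member was higher and 4 lower (6.32% and 6.08% of all genes), and Ndufs5 was at 0.26, Ndufb4 at 0.18, Ndufaf3 at 0.28 and Cox6a2 at -1.08, none of them called. Without the anterior library Ndufb4 (0.45), Ndufaf4 (0.85) and Cox6a2 (-2.01) were not called, and without whole replicate 1 Ndufaf4 (0.66) was not. Cox6a2 was also not called in DESeq2 (-1.83), nor Ndufaf3 with a 50% limit on Mt- UMIs (0.49).

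Between the whole and the dissected preparation no member was called, where 0.247% of all genes were higher and 0.624% lower. With no size limit 4 were lower and 0 higher (1.08% and 0.631% of all genes), and with a size limit of 1 none was called (0.206% lower and 0.0685% higher). DESeq2 called 0 in either direction.

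The isoform members broke the common pattern. Cox4i2, the form of subunit 4 known from lung and from oxygen-sensing and smooth muscle cells, had 537 and 1259.7 in fibroblast-like cells, 293 and 155 in endothelial-like, 81.3 and 74.5 in folliculostellate-like and 10.8 and 15.1 in pituicyte-like cells, and from 0 to 3.61 in the 12 endocrine sums. It made up 38.3% and 55.3% of the UMIs of Cox4i1 and Cox4i2 together in fibroblast-like cells. In endothelial-like cells this was 22.7% and 11%, and in folliculostellate-like cells 7.17% and 6.19%. It was under 1% in pituicyte-like, macrophage-like and all endocrine sums. Ndufa4l2, known as a hypoxia-induced paralog of Ndufa4 and from pericytes, had 285 and 607 in fibroblast-like, 167 and 86.6 in endothelial-like, 21.5 and 19.0 in lactotroph-like and 5.38 and 4.03 in folliculostellate-like cells. Both genes were thus highest in fibroblast-like cells, where the whole preparation was above the dissected one, and next in endothelial-like cells, where it was below. In folliculostellate-like cells Ndufa4l2 was called lower against hormone cells (-1.23) and higher against pituicyte-like cells (2.63), the latter on 4 and 2 UMIs in pituicyte-like cells. The first call was lost without either whole lane (-1.0 and -1.04), with the 10% limit on Mt- UMIs (-0.79) or with doublets kept (-0.33). The second was lost without the anterior (2.13) or the posterior library (0.85). It was also lost with the 10% limit (7.99) or with hormone-rich cells left out of non-endocrine classes (2.49).

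Within those classes both genes went with Rgs5, a pericyte marker. In dissected fibroblast-like cells the 71 cells with an Rgs5 UMI had a Cox4i2 level of 1783 and the 130 cells without one 6.28, and in the whole preparation 89 cells with it had 1738 and 34 without it 59.2. For Ndufa4l2 the values were 898 against 23.9 and 813 against 88.8. Endothelial-like cells showed the same split: Cox4i2 was 530 in 161 dissected cells with Rgs5 and 0.916 in 168 without it (398 in 72 and 2.06 in 197 cells of the whole preparation). In those dissected endothelial-like cells Cdh5, an endothelial cadherin, was 457 with Rgs5 and 516 without it, and Pdgfrb, a pericyte receptor, 199.6 and 6.41. The fibroblast markers Dcn (1504 and 68.7) and Lum (375 and 15.6) were also higher with Rgs5 there, so the split was not confined to pericyte genes. In dissected fibroblast-like cells Dcn was lower with Rgs5, 3661 against 16294. Doublets of endothelial cells with pericytes or fibroblasts below the score limit, and free RNA of pericytes or fibroblasts, were not tested. The Rgs5 split was looked at after the isoform levels had been seen.

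In folliculostellate-like cells, Cox4i2 was found at a low level in many cells. At least 1 UMI of it was found in 316 of 852 dissected cells (37.1%, exact binomial 95% interval 33.8% to 40.4%) and in 547 of 1692 whole-preparation cells (32.3%, 30.1% to 34.6%), intervals that cover counting error only. In lactotroph-like cells, a class at background level for this gene, it was 16 of 2241 (0.714%) and 15 of 3483 (0.431%), at a median depth of 15024 and 16207 UMIs per cell against 6386 and 5953 in folliculostellate-like cells. The log2 fold change against hormone cells was 6.65 (SE 0.33, adjusted p = 9.54e-15, edgeR), a fitted value that depends on the prior count and is no bound, set against hormone-like levels from 0 to 3.61. Against pituicyte-like cells it was 2.79. Of the folliculostellate-like clusters, cluster 10 was lowest at 33.7 and 25.3, against 101 to 149 in clusters 4 and 6.

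Cox6b2, the testis form of subunit 6b, was highest in fibroblast- and folliculostellate-like cells. Its level was 41.4 and 54.0 in fibroblast-like cells, 18.2 and 21.6 in folliculostellate-like cells, 12.7 and 5.82 in macrophage-like cells and from 0 to 0.543 in the 10 hormone-like sums. Folliculostellate-like sums held 132 and 279 UMIs of it, pituicyte-like sums 2 and 0, and hormone-like sums 0 to 4. It was called higher against hormone cells (adjusted p = 9.11e-15, edgeR), and the fitted fold change is not given because it depends on the prior count. At least 1 UMI occurred in 106 of 852 and 206 of 1692 folliculostellate-like cells (12.4% and 12.2%) and in 2 of 1103 pituicyte-like cells of the posterior library. In fibroblast-like cells it did not follow Rgs5 (38.4 with and 42.7 without it in the dissected, 54.2 and 53.3 in the whole preparation). Macrophage-like cluster 16 had 21.1 and 18.1, and cluster 15 had 3.11 and 2.07.

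**Figure D5:**
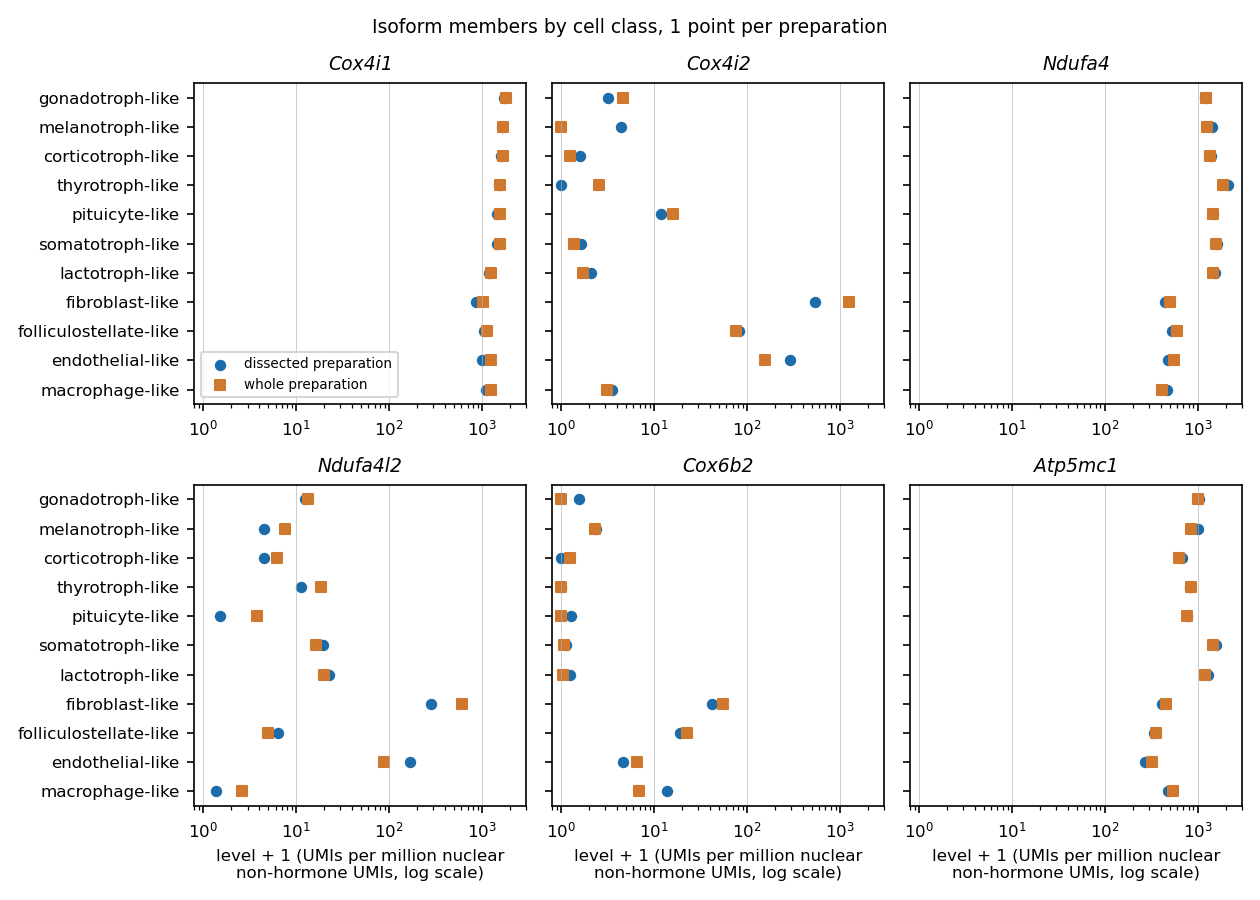
Level + 1 (UMIs per 1000000 nuclear non-hormone UMIs, log scale) of isoform members in the 11 classes, 1 point per preparation. Cox4i2 reaches 1260 in fibroblast-like cells and is at most 3.61 in the hormone-like sums, and Cox6b2 is at 18.2 and 21.6 in folliculostellate-like cells.

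The rotor ring genes shifted in proportion without an on or off pattern. Atp5mc1 gave 63.1% and 61.4% of the UMIs of Atp5mc1, Atp5mc2 and Atp5mc3 in somatotroph-like cells and 57.1% and 55.3% in lactotroph-like cells, but 27.6% and 27.6% in folliculostellate-like and 28.1% and 27.4% in endothelial-like cells. Atp5mc2 gave the largest part in folliculostellate-like cells (59.6% and 58.7%), and 40.5% and 39.4% in pituicyte-like cells. Cox6a2 was at 22.2 and 12.4 in corticotroph-like cells and at or below 7.87 in every other sum. For Cox6b1 and Cox6a1, the common partners of these isoforms, levels in folliculostellate-like cells were 416 and 418 (Cox6a1, -0.99 against hormone cells) and 101 and 104 (Cox6b1, identifier ENSRNOG00000024309, -0.24, not called). The second Cox6b1 identifier, ENSRNOG00000034161, had 179 and 176 (-0.28, not called), and how reads are divided between these copies is uncertain.

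Other mitochondrial and energy genes gave mixed counts in folliculostellate-like cells against hormone cells, on the same call rule, where 22.2% of all genes were lower and 30.9% higher. Mitochondrial ribosomal proteins were lower for 21 and higher for 4 of 71, import genes (Timm and Tomm) lower for 8 and higher for 3 of 21, and assembly genes of complexes III and IV lower for 8 of 18, among them Cox17, the copper chaperone (-1.50). The tricarboxylic acid cycle and pyruvate entry list was lower for 7 and higher for 5 of 22, carriers lower for 2 of 7, oxidant defence lower for 3 of 7 (Sod2 -1.10, Gpx4 -0.58), and biogenesis genes lower for 2 and higher for 1 of 14. Glycolysis genes were lower for 4 and higher for 7 of 19. The 2 with the highest mean level were Pgam1, phosphoglycerate mutase, at -2.53 and Aldoa, an aldolase, at -0.97. The summed level of the list, 3960 and 3875, lay within the 2590 to 4939 of the hormone-like sums. The list holds Aldoc, a marker used to name folliculostellate-like cells. Cytosolic ribosomal proteins were higher for 21 and lower for 7 of 89.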

How the data were processed

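RNA of pituitary cells was measured in 4 droplet libraries (10x Chromium 3' kit v3, per the labels' protocols). The deposited matrix holds counts, whole UMI counts per gene and barcode, made by the authors with Cell Ranger 3.1, per the submitters' processing notes. The genome build, the annotation and whether depth was equalized between libraries are not given in the sources used here; promoter positions are RefSeq's (GRCr8). Barcodes were assigned to libraries by their suffix in the deposited list of barcodes, per the labels.

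Cells had at least 1000 UMIs, 500 genes and at most 20% Mt- UMIs. Scrublet (expected rate 0.06, run within each library) marked doublets, and scores above 0.25 were removed. Clustering used log counts scaled to 10000, 2000 variable genes, 30 principal components, 15 neighbors and the Leiden method at resolution 1 (scanpy 1.11.5). A cluster was named where at least 3 of a class's markers reached 20 CPM and 25% of their top cluster, limits set after marker values had been seen. Sums of 17989 cells were fitted in edgeR 4.0.16 (quasi-likelihood test, TMM, filterByExpr, terms for class and preparation, 10 residual degrees of freedom, 14588 genes), and the whole lanes were summed as 1 suspension. SE is the absolute log2 fold change divided by the square root of F.

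On simulated counts for folliculostellate against hormone cells (13061 genes), the test called 77 of 100 genes with a true 1.5-fold change. It called 100 of 100 with a 2-fold change and 4 of 12861 with none. All classes had the same mean per gene there, except for 200 changed genes drawn above a minimum of expected counts. In the data 96.2% of all genes passed the class term, so the simulation cannot give the error rate or power for such differences between classes.

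Members and lists were chosen with earlier results of these data known. Names were drawn, per complex, from the 3 members with the highest mean level or the widest range. Further sources were, per comparison, the 3 largest called rises and falls, isoform sets, and the 2 most abundant genes of each list. Not every gene of these sets is named. Other names illustrate a complex or a list and were chosen after their values were seen. The alternatives were DESeq2 1.42.0, RLE and non-hormone library sizes, no low-count filter, no preparation term, other limits on Mt- share, depth and size, doublets kept, hormone-rich cells left out, and each library left out.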

Additional observations from a re-analysis of the deposited data

Results flagged for a closer look

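The summed member level of melanotroph-like over corticotroph-like cells had opposite signs in the preparations, a log2 ratio of 0.102 in the dissected and -0.0557 in the whole one, and the difference between preparations was not tested. Atp5s, which encodes a factor linked to ATP synthase coupling and assembly, was called lower in folliculostellate-like than in pituicyte-like cells (log2 fold change -0.55, adjusted p = 0.0278, edgeR), yet its log2 ratio of levels was -0.50 in the dissected and 0.11 in the whole preparation; this difference was not tested either.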

How the results depend on the processing

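Each preparation is a pool with n = 2, classes were rebuilt from markers, and depth limits the members with few counts, above all Cox6b2, Cox6a2 and Ndufa4l2. Without the term for preparation (no replicate block), 65 members were lower in folliculostellate- than in pituicyte-like cells instead of 68, and the other counts of calls were the same as with it.

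The members' median minus that of all genes kept its sign over 16 settings for folliculostellate against hormone cells (-0.71 to -0.56), against pituicyte-like cells (-0.87 to -0.70), non-endocrine against endocrine (-0.52 to -0.38) and gonadotroph- and thyrotroph-like against other hormone cells (0.13 to 0.33). It did not for melanotroph- against corticotroph-like cells (-0.02 to 0.08).

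Counts moved mostly with the call rule. At the adjusted p alone, 7 members were higher and 60 lower in non-endocrine classes, 6 higher in folliculostellate- than in hormone cells, 7 higher and 6 lower in gonadotroph- and thyrotroph-like cells, 4 lower in melanotroph-like cells and 4 lower in the whole preparation. With a log2 size of 1, 3 were lower in non-endocrine classes, 10 and 18 in folliculostellate-like cells against hormone and pituicyte-like cells, and 0 were higher in gonadotroph- and thyrotroph-like and in melanotroph-like cells.

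For non-endocrine classes, 60 were lower with library size outside Mt- and hormone genes (35.8% of all genes) and 45 with a 10% limit on Mt- UMIs (25%), and leaving out a library gave 1 to 2 higher (1 without the posterior library, where Cox6b2 was not called). For gonadotroph- and thyrotroph-like cells, the higher count was 4 with RLE, non-hormone library size, DESeq2 or both dissected libraries, 5 with the 10% limit, and 2 with no low-count filter, a 50% limit or doublets kept. It was 1 to 4 with each library left out. Over these settings 4.71% to 12.6% of all genes were higher. The lower count was 1 with no low-count filter or the 50% limit. For melanotroph- against corticotroph-like cells, 2 were lower with no low-count filter, both dissected libraries or the 50% limit, and leaving out a library gave 1 to 7 higher and 1 to 4 lower.

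The ratio of the highest to the lowest class level was 2.19, 2.10 with the 10% limit (10 classes), both for gonadotroph- over macrophage-like cells, and 2.38 over UMIs outside Mt- genes only, there for pituicyte- over lactotroph-like cells. For the Mt- share the ratio of pituicyte- to lactotroph-like cells was 2.43, 2.81 with the 50% limit and 2.42 to 2.65 with each library left out, the last without the anterior library. With the 10% limit it was 1.60, with folliculostellate-like cells highest.

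Of 1110 alternative values for 74 calls of members in the sets that names were drawn from, 1043 kept their call, 67 missed the threshold and 0 changed sign. Ndufa4l2 (-1.23 against hormone cells) was not called with the 10% limit (-0.79), doublets kept (-0.33) or either whole lane left out (-1.0 and -1.04). Against pituicyte-like cells (2.63, on 4 and 2 UMIs in those) it was not called without the anterior (2.13) or posterior library (0.85). Nor was it called with the 10% limit (7.99) or with hormone-rich cells left out of non-endocrine classes (2.49).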

Other observations

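Classes too small for the fits are given as values only. Schwann-like cells, which wrap axons, had a member level of 21030 in the dissected and 23222 in the whole preparation, and T or NK-like lymphocytes 22407 and 21465 beside 18735 to 22060 in the 8 sums of the 4 low classes. Schwann-like cells of the whole and lymphocytes of the dissected preparation lay above that range. The cluster led by cell cycle genes (205 cells of several lineages), left out of all sums, had 37880 and 35866. At least 1 UMI of Cox4i2 was found in 6 of 64 and 7 of 20 Schwann-like cells.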
